A study of Mus musculus with 12 samples.

Results

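The myosin light chains measured here were Mylpf, Myl1, Myl2, Myl3, Myl4, Myl6, Myl6b and Myl9, and every probe of the deposited expression table annotated to one of these 8 mouse genes was taken, which gave 14 of its 45281 probes. For a test, a probe had to exceed the median of its array in every replicate of some stage, which 23349 probes did. Of the light chain probes 13 passed this filter, and the single Myl3 probe did not, so it is described apart from them. The genes were read as 5 sarcomeric light chains (Mylpf, Myl1, Myl2, Myl3, Myl4; 9 probes) and 3 light chains counted here as non-muscle (Myl6, Myl6b, Myl9; 5 probes).

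The cells were C2C12, an established mouse myoblast line that fuses into myotubes when serum growth factors are withdrawn. Total RNA was hybridised to 12 single-colour Illumina bead arrays for 4 stages with 3 arrays each: growing myoblasts that covered 50% of the dish, myoblasts that covered 95%, and myotubes 24 h and 48 h into differentiation. The myoblast groups grew in DMEM with bovine calf serum, and the myotube groups were switched at full confluence to DMEM with heat-inactivated horse serum, insulin and transferrin, so that stage, medium and cell density changed together after the 95% group. All groups come from 1 cell line, the labels name no genotype or other agent, and they do not say whether the 3 arrays of a group were separate cultures, so p-values measure the spread between these arrays, which may be technical.

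In a myosin II motor, each heavy chain carries an essential and a regulatory light chain on its neck, behind the actin-binding head. The essential chains stiffen the neck; the regulatory chains also carry the serine that myosin light chain kinases phosphorylate, which switches on contraction in smooth muscle and non-muscle cells and tunes force in striated muscle. Mylpf is the regulatory chain of fast skeletal fibres, Myl2 that of slow skeletal and ventricular muscle, and Myl9 that of smooth muscle and non-muscle cells. Among the essential chains, Myl1 belongs to fast skeletal fibres, Myl3 to slow skeletal and ventricular muscle, and Myl4 to embryonic skeletal muscle and the atria. Myl6 is the essential chain of smooth muscle and non-muscle cells, and Myl6b, whose older name MLC1SA marks a slow skeletal chain, sits beside Myl6 on chromosome 10 with 0 annotated genes between them.

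The values are log2 intensities after the authors' normalisation. Every array had a median of 6.68 and ran from 6.32 to 15.25, and a probe near the top of that range has little room left to rise. Folds are taken from these log2 values, and they understate the change of probes near the lower end. Levels were compared between stages for one probe at a time and not between probes. Array 3 of the 95% group stood apart: the SD of its probes around their group means was 0.176, against 0.0567 to 0.118 on the other 11 arrays, and its correlation with the other arrays of its group was 0.9866 and 0.9875. Its part in the results is given below by values without it. The 6 skeletal muscle markers (Myod1, Myog, Des, Ckm, Acta1, Tnnt3) all passed the filter, and their summed log2 level was 55.1 to 57.1 at 50%, 49.4 to 52.5 at 95%, 69.4 to 71.3 at 24 h and 76.8 to 77.3 at 48 h. Of the markers of other cell types, 0 of 4 adipocyte genes passed it, 2 of 3 endothelial (Pecam1 and Kdr, not Cdh5), 2 of 4 osteoblast (Sp7 and Alpl, not Bglap or Ibsp) and 1 of 3 leukocyte genes (Csf1r, not Ptprc or Adgre1). Sp7 fell by 0.39 with confluence, and the other 4 of these past the filter were not called in any of the 3 successive steps. Sp7 passed the filter through the 50% arrays alone, so its fall is in part set by the filter.

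Stretches of 250 bases before the annotated transcription start are shown for 4 of the genes, Mylpf and Myl1, which rose in differentiation, and Myl6 and Myl9, which fell on its second day. They are RefSeq sequence on GRCm38.p6, read 5′ to 3′ on the gene's strand, and capitals mark matches to the E-box (CANNTG, bound by MyoD and myogenin among other factors) or the CArG box (bound by serum response factor). The Mylpf window lies at chr7:127211358-127211607 on the plus strand, the Myl1 window at chr1:66945057-66945306 on the minus strand, the second of 2 annotated Myl6 windows at chr10:128493010-128493259 on the minus strand, and the Myl9 window at chr2:156775214-156775463 on the plus strand. Myl2, Myl4 and Myl6b also rose and are not shown, so these stretches are examples and do not stand for all windows. The first Myl6 window, not shown, held an E-box at base -71 and no CArG box. Myl9 also had an E-box at base 41, after the start.
Mylpf: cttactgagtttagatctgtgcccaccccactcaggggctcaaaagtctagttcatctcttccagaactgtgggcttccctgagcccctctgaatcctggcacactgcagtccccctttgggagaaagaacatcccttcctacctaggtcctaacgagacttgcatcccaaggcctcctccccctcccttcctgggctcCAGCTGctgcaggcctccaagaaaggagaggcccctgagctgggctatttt
Myl1: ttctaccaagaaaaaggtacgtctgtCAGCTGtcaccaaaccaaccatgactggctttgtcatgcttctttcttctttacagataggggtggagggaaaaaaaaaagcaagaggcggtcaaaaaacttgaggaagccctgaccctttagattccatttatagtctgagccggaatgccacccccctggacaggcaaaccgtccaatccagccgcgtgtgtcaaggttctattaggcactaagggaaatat
Myl6 window 2: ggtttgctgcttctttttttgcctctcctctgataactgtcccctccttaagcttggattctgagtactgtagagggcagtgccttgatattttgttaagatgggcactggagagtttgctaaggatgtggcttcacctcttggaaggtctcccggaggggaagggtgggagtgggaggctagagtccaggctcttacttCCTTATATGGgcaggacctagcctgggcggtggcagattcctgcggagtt
Myl9: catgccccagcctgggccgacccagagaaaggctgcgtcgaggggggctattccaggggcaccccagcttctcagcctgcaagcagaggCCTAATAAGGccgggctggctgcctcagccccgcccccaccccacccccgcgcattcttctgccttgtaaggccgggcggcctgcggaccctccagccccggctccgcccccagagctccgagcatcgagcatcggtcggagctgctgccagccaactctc

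Windows of 300 bases, which add 50 bases after the start, matched all 8 genes by symbol and numbered 10, since Myl2 and Myl6 each had 2. The CAGCTG form of the E-box stood in 4 of the 10, in Mylpf at base -51, in Myl1 at base -224 and in both Myl2 windows, against 16.3% of all 32851 windows of this length. Any E-box was in 8 of the 10 and in 72.31% of all windows, so this looser motif separates few genes. A CArG box was in 3 of the 10, those of Myl3, Myl6 (at base -50) and Myl9 (at base -161), against 1.629% of all windows. A MEF2 box was found in 0 of the 10 and in 3.187% of all windows; TATAAA was in 2, those of Myl1 and the second Myl2 window, and in 13.62% of all. Motifs were sought on both strands; CAGCTG is a form of CANNTG, and the Myl4 window held none of these letters. A match describes the letters and is not evidence of binding.

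**Figure D1:**
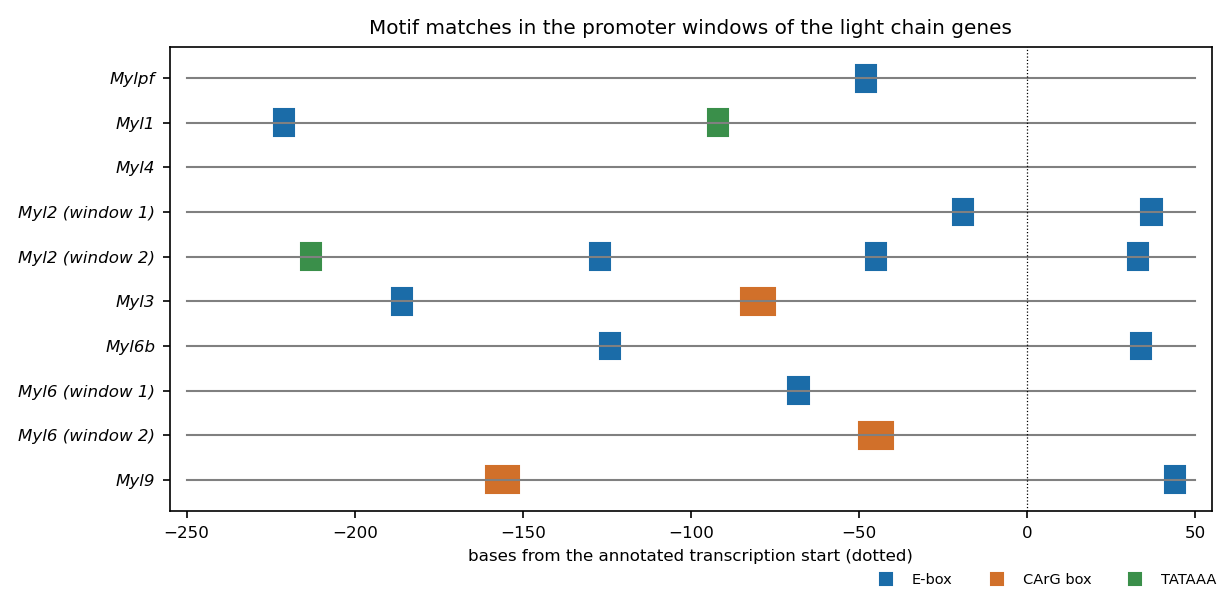
Motif matches in the 10 promoter windows of the 8 light chain genes. The horizontal axis gives bases from the annotated transcription start, and each box is a match to an E-box (blue), a CArG box (orange) or TATAAA (green), with 8 of the 10 windows holding an E-box and 3 a CArG box.

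Across the whole course, from 50% myoblasts to 48 h myotubes, 9 of the 13 tested light chain probes rose and 3 fell, whereas 51.8% of all tested probes changed (23.7% higher, 28.1% lower). All 8 tested sarcomeric probes were among those that rose, with a median difference of 3.94 on the log2 scale, against -0.01 over all tested probes. The Myl2 probe and the dim Myl4 probe ILMN_1252533 passed the filter through the 48 h arrays alone, and the low Myl3 probe was not tested. Counts of sarcomeric probes higher at 48 h are therefore in part set by the filter. Of the 5 non-muscle probes 1 rose, that of Myl6b, and 3 fell, those of Myl6 and Myl9, with a median of -0.33. Calls are limma's moderated test with Benjamini-Hochberg adjusted p under 0.05 over all 23349 probes. In bulk RNA, fewer cells of a type and less RNA per cell cannot be told apart.

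**Figure D2:**
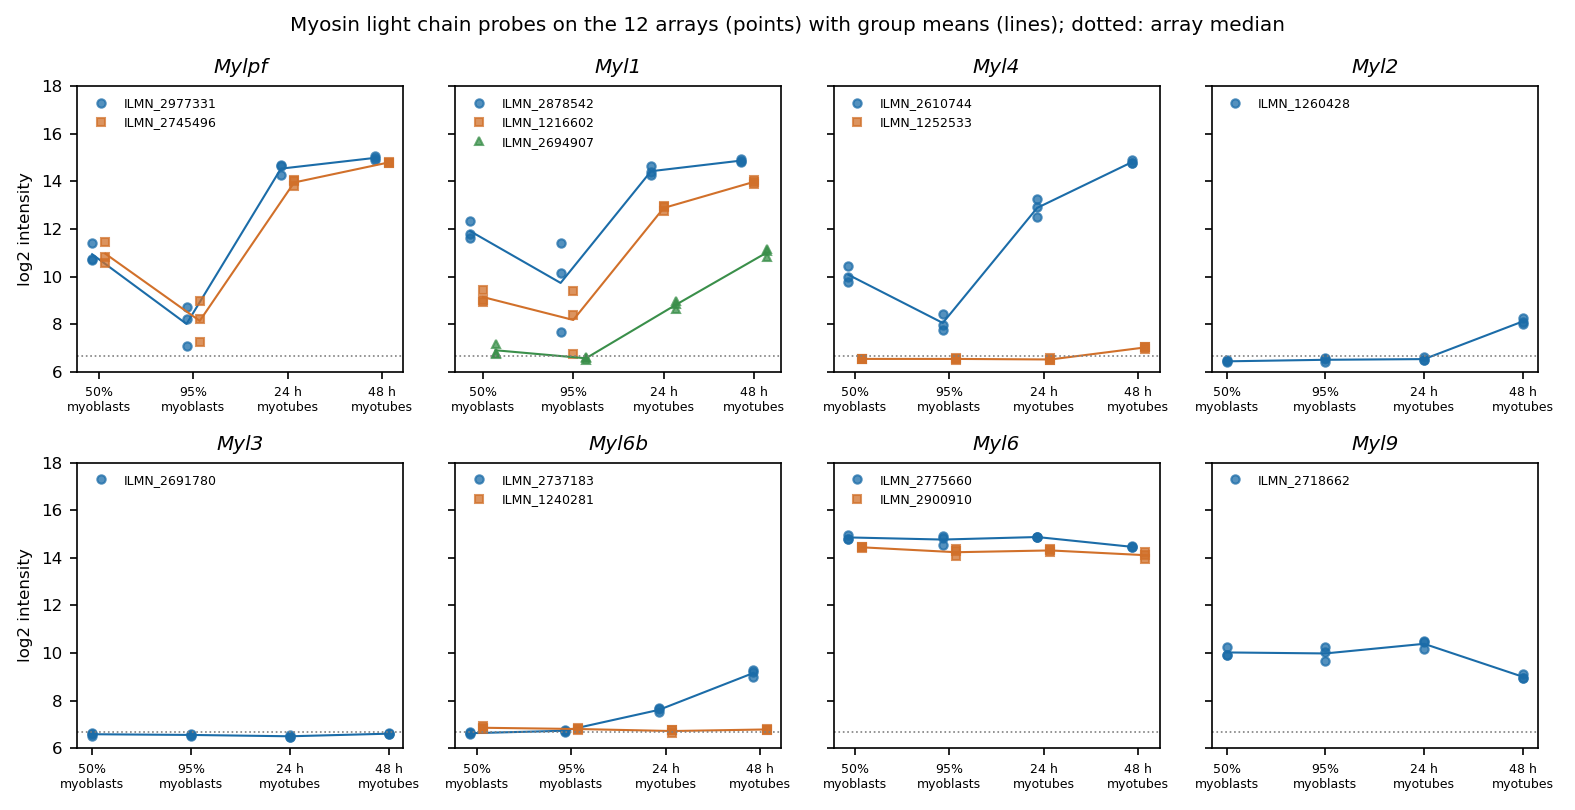
Log2 intensity of each light chain probe (vertical axis) on the 12 arrays, by stage (horizontal axis). Points are single arrays, lines join the means of 3 arrays, colours and shapes separate the probes of a gene, and the dotted line is the array median of 6.68; Mylpf and Myl1 dip at 95% and stand above 14 at 24 h on their brightest probes, Myl2 leaves the median only at 48 h, and Myl9 is lowest at 48 h.

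Mylpf, the fast regulatory chain, had the largest first-day rise among the light chain probes. On its brighter probe, ILMN_2977331, the 50% arrays read 11.40, 10.73 and 10.69, the 95% arrays 8.21, 8.74 and 7.08, the 24 h arrays 14.65, 14.26 and 14.68, and the 48 h arrays 14.99, 15.06 and 14.91. The order was 95%, 50%, 24 h, 48 h, and the arrays of no pair of stages overlapped. It fell by 2.93 on the log2 scale (SE 0.33) with confluence, a 7.6-fold lower level (limma, adjusted p = 3.81e-05), then rose by 6.52 (SE 0.33) in the first day, 91.7-fold (adjusted p = 7.28e-08). The second-day difference was 0.45 (SE 0.33, adjusted p = 0.301), so the neighbours 24 h and 48 h were not separated by the test over all 12 arrays. The second probe, ILMN_2745496, gave -2.82, 5.81 and 0.84 for the same steps, the last with adjusted p = 0.0579. Without array 3 of the 95% group the second-day values were unchanged but passed, with adjusted p = 0.0447 and 0.00261. On ILMN_2977331 the first-day rise was then 6.05, or 66.4-fold, and the confluence difference -2.46, or 5.50-fold lower.

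Myl1, the fast essential chain, had 3 probes that rose to different extents. On the brightest, ILMN_2878542, the 50% arrays read 12.33, 11.60 and 11.79, the 95% arrays 10.13, 11.40 and 7.67, the 24 h arrays 14.63, 14.26 and 14.38, and the 48 h arrays 14.79, 14.87 and 14.95. The 95% arrays spread over more than 3 log2 units, all below the 50% arrays, and the 24 h arrays were all above both myoblast groups. It rose by 4.69 in the first day (SE 0.66, adjusted p = 0.000233), 25.8-fold. Without array 3 of the 95% group this rise was 3.66, or 12.6-fold, and without array 2 of that group it was 5.52. The second-day difference of 0.45 did not pass (95% interval -1.01 to 1.90, adjusted p = 0.633, or 0.156 without array 3 of the 95% group). The 48 h arrays all lay above the 24 h arrays. The interval rests on a spread shared by all groups, and the SD was 1.90 at 95% against 0.19 at 24 h and 0.08 at 48 h.

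Of the dimmer Myl1 probes, 1 rose again in the second day. ILMN_1216602 read 9.44, 9.03 and 8.94 at 50%, 8.40, 9.40 and 6.73 at 95%, 12.97, 12.76 and 12.90 at 24 h, and 13.98, 13.87 and 14.07 at 48 h. ILMN_2694907 read 7.18, 6.76 and 6.78 at 50%, 6.52, 6.62 and 6.57 at 95%, 8.97, 8.65 and 8.86 at 24 h, and 11.06, 10.81 and 11.15 at 48 h. The myoblast groups overlapped on the first of these and sat near the array median on the second, while on both the 24 h and 48 h arrays were fully apart. ILMN_2694907 rose by 2.26 in the first day and 2.18 in the second (SE 0.12 each, adjusted p = 1.14e-07 and 6.18e-08), and the difference between those steps was -0.08 (95% interval -0.54 to 0.38). ILMN_1216602 rose by 4.70 in the first day, 26.0-fold, or by 3.98 and 15.7-fold without array 3 of the 95% group and by 5.31 without array 2. Its second-day difference of 1.10 (SE 0.47) had adjusted p = 0.0794, or 0.000274 without array 3. Which Myl1 transcripts the 3 probes read was not determined here.

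The fall of Myl1 with confluence varied with the arrays and settings used. It was 2.17 lower on the log2 scale (SE 0.66, adjusted p = 0.0209) on ILMN_2878542. It differed by -1.14 without array 3 of the 95% group (adjusted p = 0.00399) and by -3.01 without array 2 (0.00124). The call over all 12 arrays was lost without array 1 of the 50% group (adjusted p = 0.0698) and with trended, robust variances (0.0548). ILMN_2694907 differed by -0.34 (adjusted p = 0.0437), a call lost in several alternatives, among them testing all probes of the table (0.0768), and ILMN_1216602 differed by -0.96 without passing (adjusted p = 0.130). That last difference was -0.24 without array 3 of the 95% group (adjusted p = 0.403) and -1.57, past the threshold, without array 2 (0.00591).

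Myl4, the embryonic and atrial essential chain, rose in both days. On ILMN_2610744 the 50% arrays read 10.46, 9.97 and 9.79, the 95% arrays 7.75, 8.44 and 7.98, the 24 h arrays 13.25, 12.49 and 12.92, and the 48 h arrays 14.89, 14.75 and 14.76. The 4 stages did not overlap, in the order 95%, 50%, 24 h, 48 h, and array 3 of the 95% group lay inside its group. The level fell by 2.02 with confluence (SE 0.22, adjusted p = 2.55e-05), rose by 4.83 in the first day (28.5-fold, adjusted p = 2.60e-08) and by a further 1.91 in the second (3.77-fold, adjusted p = 1.88e-05). The other Myl4 probe, ILMN_1252533, stayed between 6.49 and 6.59 until 24 h and read 7.05, 6.97 and 7.05 at 48 h, a second-day rise of 0.50 (SE 0.04, adjusted p = 1.65e-06) with no first-day call (-0.02, adjusted p = 0.730). The probes of Myl4 thus disagree on the first day, and only the brighter one had signal above the array median before 48 h.

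Myl2, the slow and ventricular regulatory chain, changed on the second day. Its probe read 6.49, 6.44 and 6.40 at 50%, 6.58, 6.53 and 6.40 at 95%, 6.61, 6.49 and 6.50 at 24 h, and 8.26, 8.08 and 8.01 at 48 h. The first 3 stages overlapped below the array median and the 48 h arrays stood clear of them. The second-day rise was 1.58 (SE 0.07), 3.00-fold (adjusted p = 1.16e-08), against 0.03 in the first day (95% interval -0.12 to 0.18). The difference between the steps was itself past the threshold (1.56, SE 0.12, adjusted p = 4.40e-06). The probe passed the filter through the 48 h arrays alone, so the second-day rise and this difference are in part set by the filter.

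Myl3, the slow essential chain, was not detected above the array median. Its probe read 6.60, 6.53 and 6.65 at 50%, 6.57, 6.50 and 6.61 at 95%, 6.54, 6.49 and 6.48 at 24 h, and 6.62, 6.59 and 6.64 at 48 h. All 12 arrays lay between 6.48 and 6.65; the 24 h arrays were all below the 48 h arrays, and both overlapped the myoblast groups. With every probe of the table tested, the 48 h against 50% difference was 0.02 (95% interval -0.06 to 0.11, adjusted p = 0.804). The second-day difference was 0.11 (adjusted p = 0.0711). Of 6 cardiac markers, measured because Myl2, Myl3 and Myl4 are also heart chains, 3 passed the filter and Nppa, Myl7 and Ryr2 did not; their summed log2 level was 40.3 to 40.4 at 50%, 40.7 to 41.0 at 95%, 42.1 to 42.6 at 24 h and 40.7 to 40.8 at 48 h. Of the 3, Nppb rose by 1.32 in the first day and fell by 1.91 in the second, Myh6 rose by 0.34 in the second (adjusted p = 3.43e-05), and Tnni3 did not pass in either day. Myh6 passed the filter through the 48 h arrays alone, so its rise is in part set by the filter. The part of the cardiac markers in the Myl2 and Myl4 results was not tested.

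Myl6b rose in both days, on 1 of its 2 probes. ILMN_2737183 read 6.67, 6.59 and 6.64 at 50%, 6.71, 6.76 and 6.75 at 95%, 7.69, 7.53 and 7.63 at 24 h, and 9.29, 9.22 and 8.98 at 48 h. The myoblast groups were near the array median and both myotube groups were apart from them and from each other. It rose by 0.88 in the first day (SE 0.07, 1.84-fold, adjusted p = 3.68e-06) and by 1.55 in the second (2.92-fold, adjusted p = 1.75e-08), and the second step was the larger by 0.67 (SE 0.12, adjusted p = 0.00174). The other probe, ILMN_1240281, stayed between 6.66 and 6.93 on all 12 arrays and differed between 24 h and 50% alone, by -0.14 (adjusted p = 0.0238), a call lost without array 2 of the 50% group (adjusted p = 0.1002) or array 1 of the 24 h group (0.102).

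Myl6, the non-muscle essential chain, was bright at every stage and fell slightly in the second day. ILMN_2775660 read 14.81, 14.80 and 14.96 at 50%, 14.91, 14.83 and 14.56 at 95%, 14.89, 14.86 and 14.87 at 24 h, and 14.44, 14.51 and 14.44 at 48 h. Only the 48 h group was below all the others. It fell by 0.41 (SE 0.08) between 24 h and 48 h, 1.33-fold lower (adjusted p = 0.00107), and the first-day difference was 0.11 (95% interval -0.07 to 0.28). ILMN_2900910 read 14.46, 14.46 and 14.41 at 50%, 14.29, 14.36 and 14.06 at 95%, 14.32, 14.26 and 14.35 at 24 h, and 13.96, 14.11 and 14.26 at 48 h. On this probe the 24 h and 48 h arrays overlapped and the second-day difference was -0.20 (adjusted p = 0.0708, or 0.0185 without array 3 of the 95% group), while the fall over the whole course, 0.33 lower (SE 0.08), passed (adjusted p = 0.00500).

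Myl9, the smooth muscle and non-muscle regulatory chain, fell furthest of the light chains in the second day. Its probe read 10.25, 9.92 and 9.91 at 50%, 10.05, 10.25 and 9.65 at 95%, 10.47, 10.51 and 10.18 at 24 h, and 8.94, 8.96 and 9.11 at 48 h. The first 3 stages overlapped and the 48 h arrays lay below all 9 others. It fell by 1.39 in the second day (SE 0.14), 2.61-fold lower (adjusted p = 9.47e-06), and was 2.03-fold lower than in 50% myoblasts (adjusted p = 8.08e-05). The first-day difference was 0.40 (95% interval 0.09 to 0.72) with adjusted p = 0.0512. It passed in 8 of 20 alternative settings, with adjusted p = 0.0314 under a level filter of 7.5, and it was 0.24 (adjusted p = 0.132) without array 3 of the 95% group.

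Smooth muscle markers were measured beside Myl9. Of 7, 5 passed the filter and Cnn1 and Myh11 did not, and the list's summed level was 67.0 to 67.3 at 50%, 63.4 to 65.1 at 95%, 63.6 to 64.1 at 24 h and 63.2 to 63.4 at 48 h. In the second day 1 of the 5 rose, the smoothelin gene Smtn by 1.37, and 1 fell, the enteric actin Actg2, by 1.58. Over all tested probes 22.6% were higher and 23.5% lower in that step, so these counts are near the shares of all probes. The brightest of 5 tested Acta2 probes differed by 0.00, but 2 of its other probes fell, and the lowest value among the 5 was -0.40. Their part in the Myl9 result was not tested.

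With confluence alone, 5 of 13 light chain probes fell and 0 rose, against 40.6% of all tested probes called, 19.9% higher and 20.7% lower. All 5 were sarcomeric, of Mylpf, Myl1 and Myl4, and none of the 5 non-muscle probes passed. Without array 1 of the 50% group 3 fell, those of Mylpf and the brighter Myl4 probe. The same arrays carried lower skeletal muscle markers. Acta1, skeletal actin, read 12.06, 11.50 and 11.42 at 50% and 8.40, 9.13 and 8.11 at 95%, and fell by 3.11 (limma, adjusted p = 2.02e-06). Myod1 fell by 0.71 and Myog by 0.59, while Des, Ckm and Tnnt3 did not pass. The Myog arrays overlapped, with 7.92, 7.67 and 7.71 at 50% and 7.14, 7.71 and 6.67 at 95%. Its other tested probe differed by 0.06. The part of these markers in the fall of the light chains was not tested.

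In the first day 7 of 13 light chain probes rose and 0 fell, where 32.5% of all tested probes were called, 14% higher and 18.5% lower. The 7 were both Mylpf probes, the 3 Myl1 probes, the brighter Myl4 probe and 1 Myl6b probe. In the second day 5 rose and 2 fell, beside 46.2% called over all probes, 22.6% higher and 23.5% lower. Those that rose were 1 probe of Myl1, both of Myl4, that of Myl2 and 1 of Myl6b, and those that fell were 1 of Myl6 and that of Myl9. Of the probes that rose, that of Myl2 and the dim Myl4 probe had passed the filter through the 48 h arrays alone. Without array 3 of the 95% group the second-day counts were 8 and 3, where 52.7% of all probes were called. Both steps share the 24 h arrays, and the first day shares the 95% arrays with the confluence comparison, so their values are given side by side only.

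**Figure D3:**
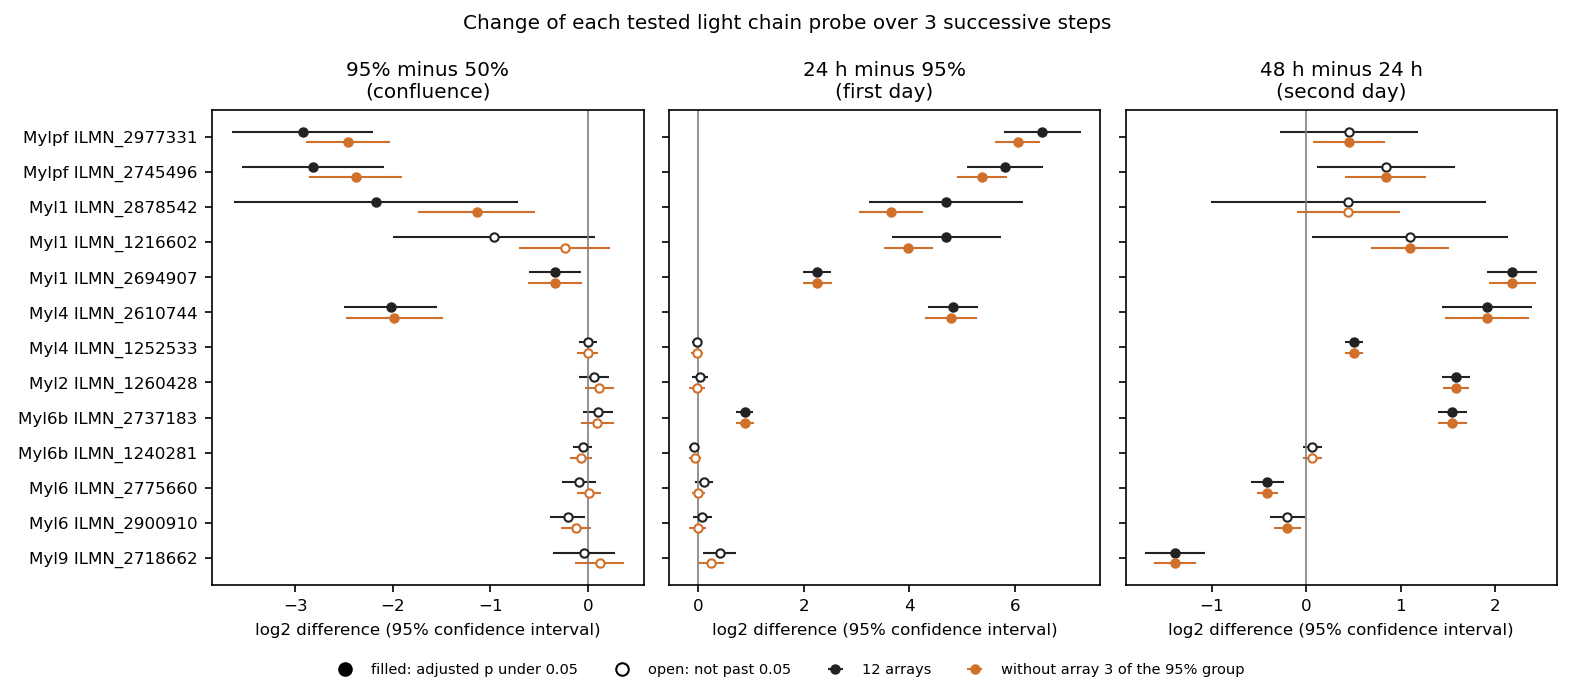
Log2 difference of each tested light chain probe with its 95% confidence interval (horizontal axis) in 3 successive steps, for all 12 arrays (black) and without array 3 of the 95% group (orange). Filled points passed adjusted p under 0.05; Mylpf fell by 2.93 and then rose by 6.52, while Myl2 rose and Myl9 fell in the last step.

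The second-day step minus the first-day step was past the threshold for 10 of 13 light chain probes, 3 higher and 7 lower, where 30.3% of all tested probes were called (16.2% higher, 14.1% lower). It was lower for Mylpf (-6.06 and -4.97), for the brighter Myl4 probe (-2.92), for Myl6 (-0.52 on ILMN_2775660) and for Myl9 (-1.79). It was also lower for the Myl1 probes ILMN_2878542 (-4.24, adjusted p = 0.0151) and ILMN_1216602 (-3.60). Those probes gave -3.21 and -2.88 without array 3 of the 95% group and -5.08 and -4.22 without array 2. The other Myl1 probe, ILMN_2694907, gave -0.08 and did not pass (adjusted p = 0.828). At 48 h the Mylpf probes, Myl1 ILMN_2878542 and the brighter Myl4 probe averaged 14.79 to 14.98. That is near the highest value of 15.25 and leaves little room for a second-day rise. The part of this limit in their smaller second steps was not tested. The step difference was higher for Myl2, Myl6b and the dim Myl4 probe (0.53). Of these, the Myl2 probe and the dim Myl4 probe had passed the filter through the 48 h arrays alone, so the count of higher probes is in part set by the filter. The Myl1 call on ILMN_2878542 was lost when the first or the third 24 h array was left out (adjusted p = 0.0613 and 0.0524), and the Myl6 call when the first was (0.0525). Any change over the 4 stages, by the moderated F-test, was called for 12 of 13 probes and for 70.3% of all; the exception was Myl6b ILMN_1240281 (adjusted p = 0.0950).

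Because the 95% group lay below the 50% group on the brightest probes of Mylpf, Myl1 and Myl4, the size of their rise depended on the myoblast stage used. At 24 h against 50%, 7 probes were higher and 1 lower, where 53.5% of all were called (25.2% higher, 28.4% lower), and Mylpf ILMN_2977331 stood 3.59 higher (12.1-fold), Myl1 ILMN_2878542 2.52 higher (5.72-fold) and Myl4 ILMN_2610744 2.81 higher (7.01-fold). At 48 h against 95%, 9 were higher and 2 lower, where 55.1% of all were called (25.4% higher, 29.7% lower). Of the 9, that of Myl2 and the dim Myl4 probe had passed the filter through the 48 h arrays alone, so this count is in part set by the filter. In this comparison Mylpf ILMN_2977331 stood 6.97 higher and Myl4 ILMN_2610744 6.75 higher, which are 126-fold and 107-fold. Without array 3 of the 95% group these were 6.51 (91.0-fold) and 6.71 (104-fold). Against 50% the 48 h differences of the same probes were 4.05 (16.5-fold) and 4.72 (26.4-fold). Myl9 was 0.36 higher at 24 h than at 50% without passing (adjusted p = 0.0527, or 0.00803 without array 3 of the 95% group).

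Of Myl7, Myl10, Myl12a, Myl12b and the light chain interacting ligase Mylip, only Myl12a and Myl12b, regulatory chains of non-muscle myosin, passed the filter. Myl12a fell by 0.29 in the second day (limma, adjusted p = 0.000638). Myl12b was 0.48 higher at 95% than at 50% (adjusted p = 0.0326) and 0.59 higher at 24 h than at 50% (adjusted p = 0.00826), and its second-day difference of -0.37 did not pass. Across its 3 tested probes the confluence difference ran from 0.48 to 0.76 and the second-day difference from -0.59 to -0.37.

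The heavy chains that the light chains bind were followed over the same stages, each by the brightest of its tested probes. Of 9 sarcomeric heavy chain genes listed 5 had a probe, and these were tested. All 5 rose from 50% to 48 h, Myh8, the perinatal chain, by 6.46, the fast chain Myh1 by 3.41 and the slow chain Myh7 by 0.47. Over all tested probes 23.7% were higher. Myh4, Myh6 and Myh7 passed the filter through the 48 h arrays alone, so this count is in part set by the filter. Myh8 rose by 1.97 in the first day and 4.69 in the second. Both non-muscle heavy chains tested fell, Myh10 by 0.63 and Myh9 by 0.47 over the whole course, where 28.1% of all tested probes were lower. Myh11 and Myh14 did not pass the filter.

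Genes that phosphorylate or dephosphorylate the regulatory chains moved both ways, as did all probes, of which 23.7% were higher and 28.1% lower over the whole course. Of 8 light chain kinase genes tested, 3 rose and 3 fell over the whole course; Mylk, the kinase of smooth and non-muscle cells, rose by 1.55, Dapk3 by 0.75 and the skeletal kinase Mylk2 by 0.60, while Cdc42bpb, Cit and Cdc42bpa fell by 0.19, 0.17 and 0.15. Cit passed the filter through the 50% arrays alone, so its fall is in part set by the filter. Of 5 phosphatase genes 3 rose and 1 fell. Ppp1r14c, an inhibitor of the phosphatase, rose by 0.81 over the course, and Ppp1cb, its catalytic subunit, rose by 0.37 in the first day and fell by 1.12 in the second.

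Chaperone genes of myosin moved both ways and the tested thick filament genes rose. Of 4 chaperone genes tested, 2 rose and 1 fell over the course. Unc45b, the muscle myosin chaperone, rose by 3.60 in the first day and 1.66 in the second, the methyltransferase Smyd1 rose by 1.03 over the course and Hsp90aa1 fell by 0.53. All 5 tested genes of the thick filament and M-band, Mybpc1, Mybpc2, Myom1, Myom2 and Myom3, rose over the course, Myom2 by 5.18 and Myom3 by 4.92. Over all tested probes 23.7% were higher. Mybpc2 passed the filter through the 48 h arrays alone, so its rise is in part set by the filter. Mybpc3 and Mybphl did not pass it, and Mybph had no probe. Myom3 and Myom1 also fell with confluence, by 0.67 and 0.25. For the myosin heavy chains, kinases, phosphatase, chaperones and thick filament genes named here, no other tested probe was called in the opposite direction in the confluence, first-day, second-day or whole-course comparison, but their sizes differed, from 0.37 to 3.41 for Myh1.

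**Figure D4:**
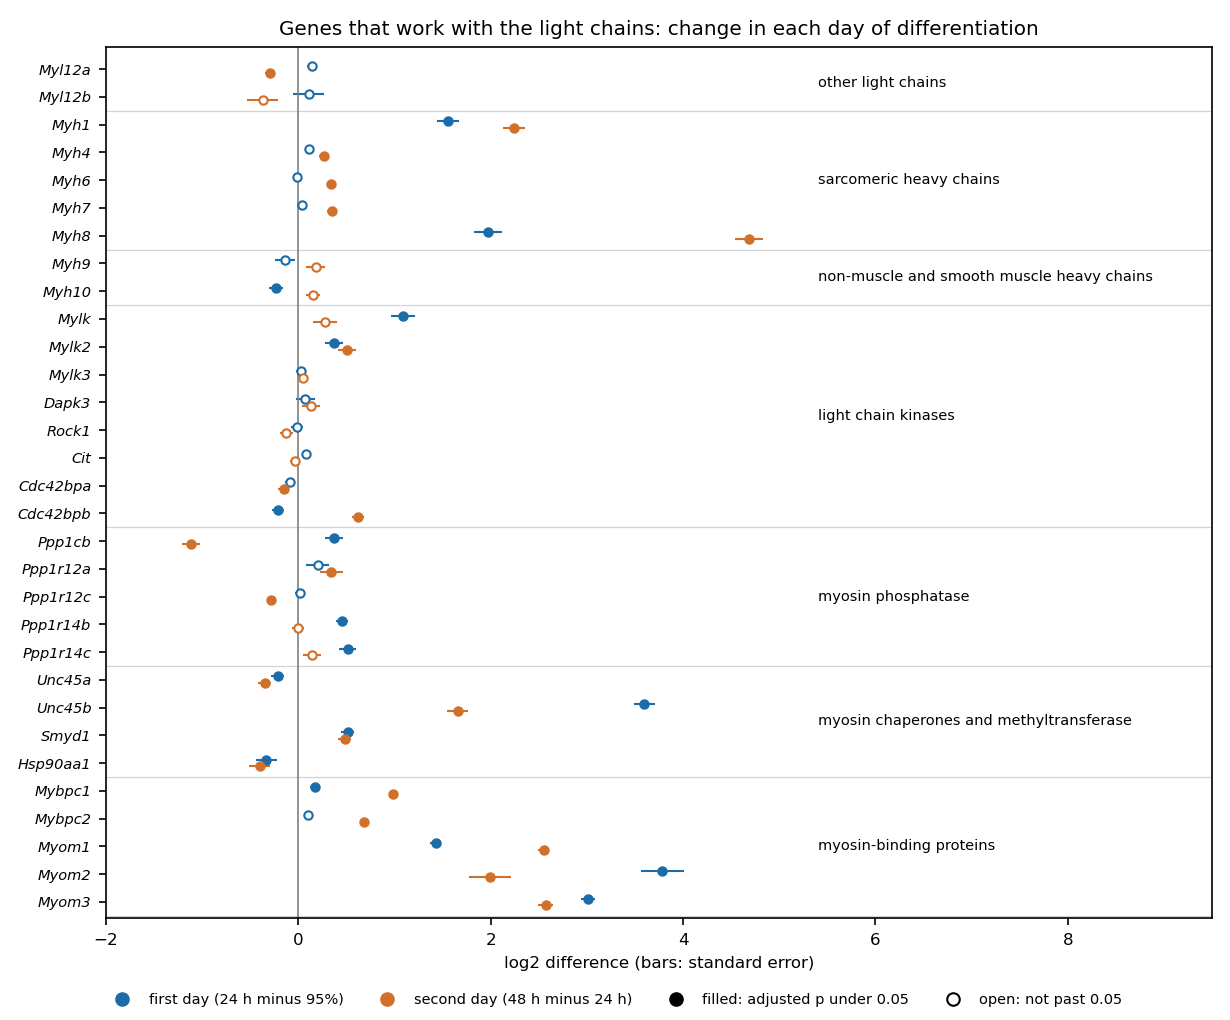
Log2 difference with its standard error (horizontal axis) of genes that work with the light chains, in the first day (blue) and the second day (orange) of differentiation. Filled points passed adjusted p under 0.05; Myh8 rises by 4.69 in the second day and Unc45b by 3.60 in the first, while Ppp1cb fell by 1.12 in the second.

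The genes with patterns most like each light chain were ranked by Pearson correlation of log2 intensity over the 12 arrays, among 11882 genes with 1 probe each. These coefficients describe the arrays, which share 4 stages, and carry no test. Mylpf was most like Acta1 (r = 0.995), Tnnc1, Lrp4, Prelp and Trim72. Myl4 was most like Igf2 (r = 0.995), Smim20, Tnni1, Tnnc1 and Trim72. Myl2 was most like Prr29 (r = 0.997), Rrad, Slc4a3, Ampd1 and Mpp3, and Myl6b most like Prkag3 (r = 0.997), Fabp3, Popdc2, Trim63 and Neu2.

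The other light chains had looser neighbours. Myl1 was most like Lrp4 (r = 0.972), Mylpf (r = 0.971), Col6a1, Slc39a11 and Tmed10, and without array 3 of the 95% group the last 3 of these ranked 98, 75 and 103. Myl6 was most like Vcam1 (r = 0.947), Sec22b, Hyi, Smarca2 and Ifit2, which without that array ranked 17, 2, 29, 118 and 45. Over all 12 arrays Myl9 was also most like Vcam1 (r = 0.958), then Pxdc1, Plekhf1, Sec61b and Mettl9, and without that array these ranked 8, 1, 2, 26 and 14. For Mylpf, Myl4, Myl2 and Myl6b the 5 genes named all ranked 9 or better without it.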

How the data were processed

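Log2 intensities of 45281 probes on 12 Illumina arrays were used as deposited by the authors; the submitters' processing notes name lumi and RMA, with no order given. Their sorted values differ between arrays by at most 0.003, so they were not normalised again. A table with 24 columns of per-sample values whose names match no label was not used. Of the probes, 34885 had 1 gene symbol, 18 several and 10378 none; 34807 symbols were looked up through the gene ID. Probes that exceeded the median of their array in every replicate of some stage (23349) were fitted with limma 3.58.1 (R 4.3.3) on group means, with eBayes and Benjamini-Hochberg adjustment over these probes, two-sided at 0.05. The test was run on simulated data first. Myosin partners are given by their brightest tested probe, and named by the size of change per list. The number of arrays limits the precision. The light chains and lists were chosen with earlier results of these data known. Motif counts used Python 3.11.15.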

Additional observations from a re-analysis of the deposited data

How the results depend on the processing

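Alternatives were no filter, a level filter of 7.5, 1 probe or 1 mean per gene, trended robust variances, array weights, centring, the replicate block and each array left out. No result changed sign while called. With 1 probe per gene, of 11883 genes 4742 were called for confluence, 4423 for the first day, 5328 for the second, 6710 over the whole course, 6621 at 24 h against 50%, 6622 at 48 h against 95%, 3451 for the step difference and 8578 by the F-test, and with the mean of a gene's probes 4859, 4508, 5540, 6807, 6769, 6736, 3651 and 8744; fewer genes than probes were tested. Under both, of 7 light chain genes tested those called were 3 for confluence, 7 over the whole course, 4 at 24 h against 50%, 7 at 48 h against 95% and 7 by the F-test. Leaving out each array in turn gave 3 to 6 light chain probes called for confluence, 3 without array 1 of the 50% group, and 7 to 11 for the second day, 11 without array 3 of the 95% group. Over all probes these ranges were 7922 to 11093 and 9294 to 12315. The main fit did not pair the arrays by replicate number. Correlations of same-numbered deviations ran from -0.0643 to 0.3123, some above the set limit of 0.1, and were positive in every comparison for replicates 1 and 3. Differently numbered arrays were not compared, so these values do not decide whether replicate numbers pair the arrays. With the replicate block 5 of 13 light chain probes were called for confluence, 8 for the first day, 8 for the second and 12 over the whole course. Of all 23349 probes 9531, 7671, 10841 and 12121 were called in these comparisons. The ranking of genes most like each light chain without array 3 of the 95% group was chosen after seeing the data.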
